A study of Homo sapiens with 12 samples.

Results

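The 10 genes described here belong to the BCL2 family, whose proteins set the threshold for apoptosis at the mitochondrial outer membrane. They were taken by gene symbol from the deposited table, 10 of its 26334 genes, and fall into 3 anti-apoptotic members (MCL1, BCL2L1 and BCL2L2), 5 BH3-only members (BCL2L11, BMF, BBC3, PMAIP1 and BID) and 2 effectors (BAX and BAK1). Of these, 9 passed the filter on low counts and were tested, and BBC3 did not pass.

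BAX and BAK1 proteins open pores in the outer membrane, which releases cytochrome c and starts the caspase cascade. Anti-apoptotic members bind and restrain them, and BH3-only proteins either occupy the anti-apoptotic members or activate the effectors directly. MCL1 protein and mRNA are known for rapid turnover, so inhibitors of transcription are used as a way to lower MCL1 in tumour cells.

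The cells were shA673-1c, made from A673 (an Ewing sarcoma line), in which doxycycline induces a short hairpin RNA that knocks down the oncogenic fusion EWS::FLI1. All 12 libraries came from cells kept for 4 days with doxycycline at 1 µg per ml, so the knockdown was shared by every group. Actinomycin D, which blocks transcription, was then given at 5 µM, and polyadenylated RNA was sequenced after 0, 1, 2 and 4 h, with 3 biological replicates at each time. The line is a single model. Cells without doxycycline were not analysed here, and levels of the BCL2 family before the knockdown are not known. Levels are given as CPM (read counts relative to library size) after TMM scaling, so each change is measured against the rest of the library's mRNA. With transcription blocked the mRNA pool shrinks, so a long-lived mRNA can gain in CPM, and fewer cells and less RNA per cell cannot be told apart.

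Libraries held between 9381855 and 10929000 counts. The first principal component (59.0% of the variance) followed time, and the second (15.9%) set the 4 libraries of replicate 3 apart. FLI1, the target of the hairpin through its part in the fusion, was at 19.8 to 21.7 CPM at 0 h, 10.4 to 19 after 1 h, 9.08 to 13.4 after 2 h and 7.01 to 8.16 after 4 h (log2 change at 4 h -1.46, edgeR adjusted p = 7.016e-05). Of 8 markers of blood, epithelium and liver, 6 did not pass the filter, CD3E was at 0 in every library, and the summed level of the 8 was 41.7 to 51 CPM at 4 h, against 43.4 to 52.1 CPM at 0 h. The sum was carried by HBB (mean 17.4 CPM, log2 change at 4 h -1.1, adjusted p = 0.006313) and KRT8 (mean 28.4 CPM, 0.53, adjusted p = 0.009119), and the part of such cells in the results was not tested. The Ewing sarcoma surface marker CD99 was listed at 0 throughout. How reads were counted is not known, so this 0 need not mean that CD99 mRNA was absent. The genes NR0B1 and NKX2-2 were low, at means of 3.32 and 1.16 CPM, in libraries that all shared the knockdown. Whether the knockdown lowered them was not tested.

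Short stretches of the 3′ UTRs are shown here for the members on which the contrast in mRNA loss rests. The pentamer ATTTA is the core of AU-rich elements, which are known to recruit decay factors to short-lived mRNAs. The sequences come from the GENCODE v29 transcripts on GRCh38, and the capitals mark ATTTA. Each is a 30-base window that holds the most copies in that UTR, and where windows tied it is the one nearest the stop codon. The BMF window holds 1 copy, so it is no denser than the sites of the other copies.
MCL1, chr1:150576217-150576246, minus strand: gacctaATTTAactggtgaaATTTAaagtg
PMAIP1, chr18:59903967-59903996, plus strand: aattttATTTAttttgcctATTTAtaatta
BCL2L2, chr14:23310146-23310175, plus strand: cctagaagcATTTAtgATTTAtttgaagcc
BMF, chr15:40089685-40089714, minus strand: aaaaaccgggattATTTAcagcagccacta

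The counts of this pentamer did not order the members by their loss, and whether it had a part in that loss was not tested. Per kilobase of UTR, MCL1 held 3.55 copies, PMAIP1 3.22, BCL2L2 1.79 and BMF 1.28. The search was on the transcript strand, copies that overlap were all counted, and the isoform was the annotation's principal one, which these cells may not use. MCL1 held 10 copies in a UTR of 2819 bases, and 22.5% of genes with a UTR within 20% of that length held at least as many. PMAIP1 held 5 in 1553 bases (28.8% of genes of like length held at least as many), and it alone among the members held the longer element TTATTTATT, in 1 copy, as did 7.13% of genes of like length. BMF, the member with the steepest slope below, held 5 in 3897 bases, below the median of 8 for its length. BCL2L2 held 5, BCL2L1 3, BID 2 and BCL2L11 1, while BBC3, BAX and BAK1 held none. Over 18911 genes with a 3′ UTR, 64.3% held at least 1 ATTTA and 7.51% at least 1 TTATTTATT. A further motif, TGTANATA (N is any base), was held by 23.4%. It had 1 copy each in MCL1, BCL2L1, BCL2L11 and BMF, the members called lower at 4 h below, and in BBC3. PMAIP1, BCL2L2, BID, BAX and BAK1 held no copy. Between 16.3% (for BCL2L11) and 52.5% (for BMF) of genes of like length held it, and whether it had a part in the loss was not tested.

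MCL1 was the anti-apoptotic member that fell most. Its level was 136, 145 and 116 CPM in the 0 h libraries, 76.2, 70.2 and 71.7 at 1 h, 47.7, 43.3 and 47 at 2 h, and 38.9, 35.5 and 37 at 4 h (replicates 1, 2 and 3). No library of a later time overlapped one of an earlier time, and the 3 replicates lay close together from 1 h on. After 1 h its log2 change against 0 h was -0.86 (SE 0.08, edgeR adjusted p = 0.001031), the sole call among the 9 tested members at that time, where 1.16% of all 12775 tested genes were called lower and 0.172% higher. After 2 h the log2 change was -1.52 (SE 0.09, adjusted p = 2.653e-07), and after 4 h it was -1.83 (SE 0.09, adjusted p = 6.945e-09), a 3.57-fold fall to 28.0% of the 0 h mean. Of all tested genes, 4.70% had a lower log2 change than MCL1 at 4 h.

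The loss of MCL1 mRNA was front-loaded. Within replicates, its log2 change was -0.86 ± 0.18 over the first hour, -0.66 ± 0.05 over the second, and -0.15 ± 0.02 per hour from 2 to 4 h (SD, n = 3). The step in log2 level after 2 h exceeded the step before it by 1.22 (4 h over 2 h, less 2 h over 0 h, SE 0.15, edgeR adjusted p = 0.006714). For MCL1, which was falling, a positive value is a slower loss after 2 h. MCL1 was the 1 member of 9 called in this comparison, where 0.611% of all tested genes were called and 0.384% with a positive value, whether falling or rising. That call ended without replicate 2 at 2 h (1.13, adjusted p = 0.071) or replicate 3 at 2 h (1.24, adjusted p = 0.0508), and it held with the replicate number as a covariate, the replicate block (adjusted p = 2.65e-07). From 2 to 4 h alone MCL1 still fell by 0.31 on the log2 scale (adjusted p = 0.02241), a call that ended without replicate 1 or 3 at 2 h, or without replicate 2 or 3 at 4 h (adjusted p from 0.0565 to 0.0796).

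BCL2L1, which encodes the anti-apoptotic protein BCL-XL, was called lower at 4 h. Its level was 155, 152 and 106 CPM at 0 h, 145, 144 and 99 at 1 h, 126, 114 and 82.9 at 2 h, and 108, 90.0 and 85.5 at 4 h. Replicate 3 began lowest, so the 4 h and 0 h libraries overlapped (108 CPM in replicate 1 at 4 h, against 106 in replicate 3 at 0 h), although each replicate was lower at 4 h than at its own 0 h. At 4 h edgeR gave a 1.46-fold fall, or -0.54 on the log2 scale (SE 0.19, adjusted p = 0.0319). This call ended without replicate 1 or 2 at 0 h, or without replicate 2 or 3 at 4 h (adjusted p from 0.0907 to 0.113), and with the replicate block and all libraries it held (adjusted p = 8.21e-09). At 2 h its value was -0.35 (adjusted p = 0.2638), past the threshold with the block (adjusted p = 2.14e-05) or without all of replicate 3 (adjusted p = 0.0132). From 2 to 4 h it was -0.19 (adjusted p = 0.53), past it in the same fits (adjusted p = 0.0192 and 0.0305).

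BCL2L2, which encodes the anti-apoptotic protein BCL-W, rose relative to other mRNAs. Its level was 42.6, 43.6 and 35.2 CPM at 0 h, 39.9, 47.4 and 36.2 at 1 h, 48, 48.7 and 41.3 at 2 h, and 53.2, 52.8 and 48 at 4 h. All 4 h libraries lay above all 0 h libraries. By edgeR it was 1.27-fold higher at 4 h, or 0.34 on the log2 scale (SE 0.11, adjusted p = 0.02574), and this became -0.03 when ribosomal protein mRNAs set the scaling. By library totals it was 0.19 (adjusted p = 0.176). The call also ended without replicate 3 at 0 h, or without replicate 1 or 2 at 4 h (adjusted p from 0.0729 to 0.126). At 2 h the log2 change was 0.18 (adjusted p = 0.3446), or 0.19 and past the threshold with the block (adjusted p = 0.0314). The readthrough gene BCL2L2-PABPN1, which shares exons with BCL2L2, had 0 counts in all 12 libraries, so reads that both could give were not listed under it.

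**Figure D1:**
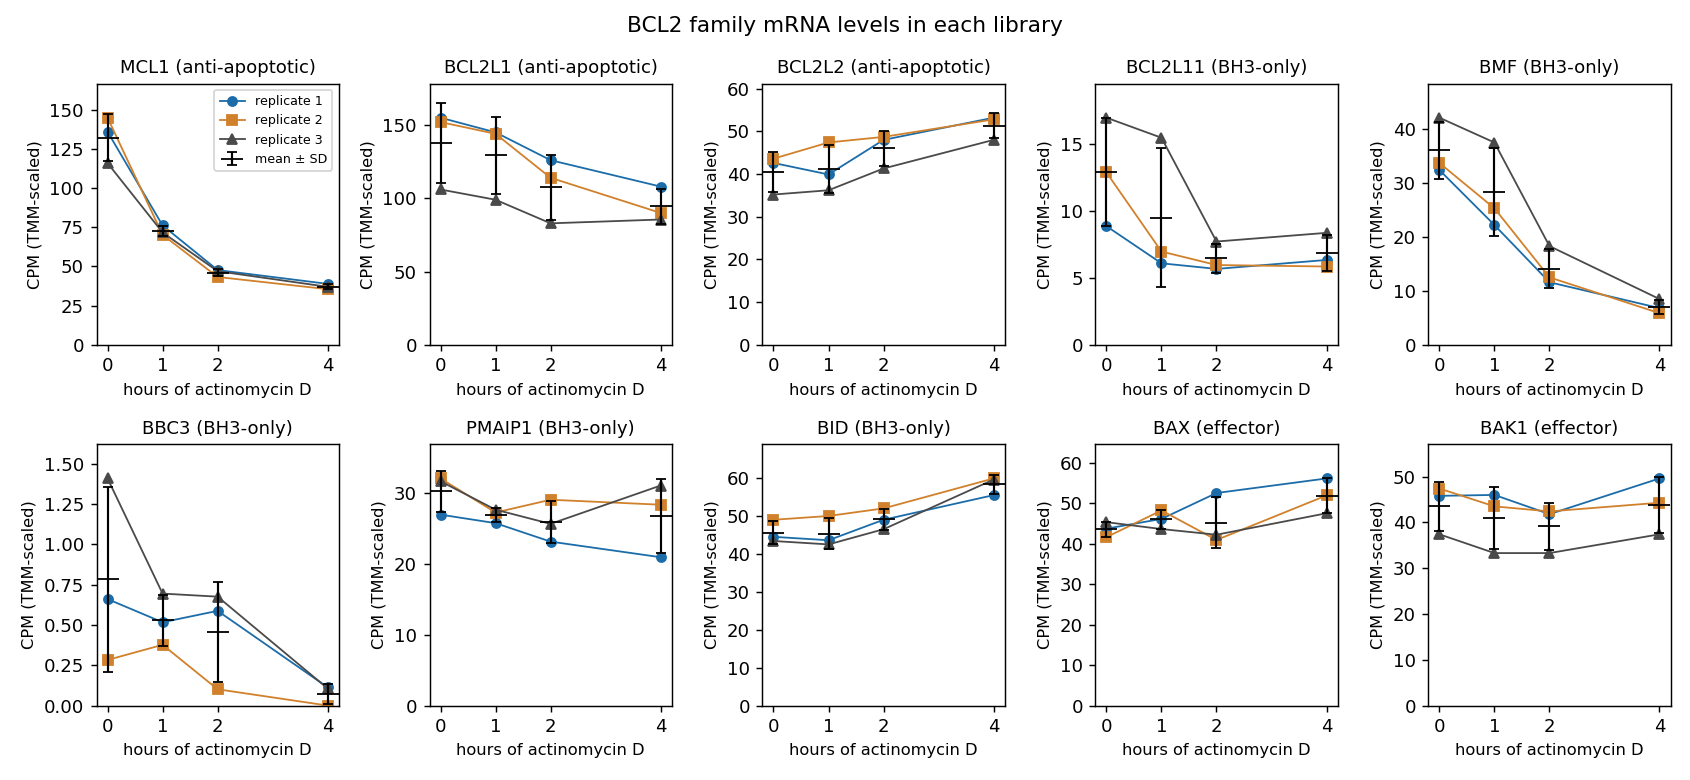
Level of each BCL2 family mRNA (y axis, TMM-scaled CPM, starting at 0 and scaled per gene) against hours of actinomycin D (x axis) in the 12 libraries, with lines joining libraries of 1 replicate and black marks for the mean ± SD (n = 3). MCL1 and BMF fell in every replicate, to 28.0% and 19.5% of their 0 h means at 4 h, while BID and BCL2L2 lay above their 0 h levels at 4 h.

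BMF, a BH3-only member, fell most among the 9 tested members at 4 h. BMF protein, a sensor of detachment and cytoskeletal stress, neutralises anti-apoptotic members. Its mRNA was at 32.4, 33.7 and 42.1 CPM at 0 h, 22.2, 25.3 and 37.5 at 1 h, 11.6, 12.5 and 18.3 at 2 h, and 6.80, 5.86 and 8.48 at 4 h. At 1 h replicate 3 still overlapped the 0 h libraries, and at 2 h and 4 h no library did. The log2 change was -1.35 at 2 h (SE 0.22, edgeR adjusted p = 0.0008091) and -2.35 at 4 h (SE 0.24, adjusted p = 4.359e-06), a 5.11-fold fall to 19.5% of the 0 h mean. At 1 h it was -0.34 (adjusted p = 0.7392), which passed with the replicate block (adjusted p = 0.00354).

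For BMF no change of rate was called. Its log2 change was -0.37 ± 0.19 in the first hour, -1.0 ± 0.05 in the second and -0.49 ± 0.10 per hour from 2 to 4 h (SD, n = 3). The difference between the steps after and before 2 h was 0.35 (SE 0.4, edgeR adjusted p = 0.7979), and the fall from 2 to 4 h alone was called, at -1.0 on the log2 scale (SE 0.25, adjusted p = 0.01023).

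BCL2L11 encodes BIM, a BH3-only protein that binds all anti-apoptotic members and activates BAX and BAK1. Its level was 8.88, 12.9 and 17 CPM at 0 h, 6.1, 6.98 and 15.5 at 1 h, 5.68, 5.97 and 7.73 at 2 h, and 6.35, 5.86 and 8.38 at 4 h. The replicates differed in timing, with a log2 change in the first hour of -0.54, -0.89 and -0.14 and in the second of -0.10, -0.23 and -1.0 (replicates 1, 2 and 3), so replicates 1 and 2 had their larger step in the first hour and replicate 3 in the second. All libraries at 4 h lay below all at 0 h. By edgeR the fall at 4 h was 1.89-fold, or -0.92 on the log2 scale (SE 0.33, adjusted p = 0.0382), and the call ended without replicate 2 or 3 at 0 h, or without replicate 1 or 2 at 4 h (adjusted p from 0.0714 to 0.131). With the block and all libraries it held (adjusted p = 8.3e-06).

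At 2 h the log2 change of BCL2L11 was already -1.0 (SE 0.33, edgeR adjusted p = 0.06303). It passed the threshold with the replicate block (adjusted p = 6.7e-06), and also in DESeq2 (adjusted p = 0.0245), with no filter on low counts (adjusted p = 0.0412), with the 2 and 0 h libraries alone (adjusted p = 0.0328), under ribosomal scaling (adjusted p = 0.0295) and without all of replicate 3 (adjusted p = 0.00607). It passed, too, without replicate 1 at 0 h or replicate 1 or 3 at 1 h (adjusted p = 0.0396, 0.0466 and 0.00972). With the block its change at 1 h (-0.45, adjusted p = 0.0447) and its change of rate (1.08, adjusted p = 0.0154) passed as well, against -0.43 (adjusted p = 0.8666) and 1.09 (adjusted p = 0.511) without it. From 2 to 4 h the log2 change was 0.09 (SE 0.35, adjusted p = 0.8969).

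PMAIP1, which encodes NOXA, a BH3-only protein that binds MCL1 in particular, did not pass the test at any time. Its level was 26.9, 32 and 31.6 CPM at 0 h, 25.7, 27.2 and 27.6 at 1 h, 23.1, 29 and 25.6 at 2 h, and 20.9, 28.3 and 31 at 4 h. The 4 h libraries overlapped the 0 h libraries, each replicate was lower at 4 h than at its own 0 h, and replicate 1 was lowest at both times. Its value at 4 h was -0.17 on the log2 scale (SE 0.14, edgeR adjusted p = 0.3169), and -0.55 under ribosomal scaling, where it passed (adjusted p = 0.00348). At 2 h it was -0.22 (adjusted p = 0.3402), which passed with the block (adjusted p = 0.0408).

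BID, which is cut by caspase 8 and links death receptors to mitochondria, rose relative to other mRNAs. Its level was 44.5, 49 and 43.4 CPM at 0 h, 43.6, 50 and 42.5 at 1 h, 49, 52 and 46.5 at 2 h, and 55.5, 59.9 and 59.6 at 4 h, with no overlap between 4 h and 0 h. By edgeR it was 1.28-fold higher at 4 h, or 0.36 on the log2 scale (SE 0.08, adjusted p = 0.003485), which became -0.02 under ribosomal scaling. By library totals it was 0.21 (adjusted p = 0.0575). The rise from 2 to 4 h was 0.25 (adjusted p = 0.04618), just past the threshold, and it ended in 11 of the 12 fits that left out 1 library (adjusted p up to 0.178), with the fit without replicate 2 at 1 h as the exception. It ended as well with RLE factors, no filter on low counts, DESeq2, the compared groups alone or both other scalings (adjusted p from 0.0551 to 0.916).

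BBC3, which encodes PUMA, a BH3-only protein induced by p53, was near the limit of detection. It had 7, 3 and 16 reads at 0 h, 5, 4 and 8 at 1 h, 6, 1 and 7 at 2 h, and 1, 0 and 1 at 4 h, so replicate 3 was highest at 0 h and the 4 h libraries lay below all 0 h libraries. Summed over 3 libraries, it had 2 reads at 4 h, against 26 at 0 h, a ratio of 0.0811 per total count with an exact Poisson 95% interval of 0.00933 to 0.324. The interval covers counting error only, and BBC3 was not among the tested genes.

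Neither effector was called at 4 h in the test over all 12 libraries, which held no replicate block. BAX was at 43.7, 41.6 and 45.3 CPM at 0 h, 46.1, 48.2 and 43.6 at 1 h, 52.5, 40.9 and 42.2 at 2 h, and 56.1, 51.9 and 47.5 at 4 h, with all 4 h libraries above all 0 h libraries. At 4 h edgeR gave 0.25 on the log2 scale (SE 0.1, adjusted p = 0.05464), which passed with the replicate block (adjusted p = 0.00434) and without all of replicate 3 (0.32, adjusted p = 0.0333). It also passed without replicate 1 at 2 h (adjusted p = 0.0219) or replicate 3 at 4 h (0.31, adjusted p = 0.0359). By library totals it was 0.10 (adjusted p = 0.44) and under ribosomal scaling -0.12 (adjusted p = 0.415). From 2 to 4 h it was 0.20 (adjusted p = 0.1839), which passed with the block (adjusted p = 0.0308) and without replicate 1 at 2 h (0.32, adjusted p = 0.0271).

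BAK1 differed by less than its replicate spread at 4 h under TMM scaling. It was at 45.8, 47.4 and 37.4 CPM at 0 h, 46, 43.5 and 33.3 at 1 h, 41.8, 42.4 and 33.3 at 2 h, and 49.6, 44.3 and 37.4 at 4 h. The groups overlapped at every time, and replicate 3 was lowest at each. Its difference at 4 h was 0.01 on the log2 scale (SE 0.15, edgeR adjusted p = 0.9693), and -0.37 under ribosomal scaling (adjusted p = 0.0674).

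Counted together, 2 of the 9 tested members (MCL1 and BMF) were lower at 2 h and 0 were higher by edgeR's adjusted p, where 11.7% of all tested genes were lower and 3.39% higher. At an unadjusted p under 0.05 edgeR gave 3 lower and 0 higher at 2 h, as DESeq2 did by adjusted p, and at 1 h both gave 1 lower and 0 higher. With the replicate block 5 members were lower and 1 higher, against 19.5% and 15.9% of all tested genes. At 4 h, 4 members were lower (BMF, MCL1, BCL2L11 and BCL2L1), where 24.6% of all tested genes were lower. At the same time 2 members were higher (BID and BCL2L2), where 23.3% of all tested genes were higher. The median log2 change of the 9 was -0.17 at 4 h, against 0.05 over all tested genes. The count of 4 lower became 2 without replicate 2 at 0 h or without replicate 2 at 4 h. The count of 2 higher became 1 without replicate 3 at 0 h, or without replicate 1 or 2 at 4 h, and 0 by library totals (4 members lower, with 31% of all tested genes lower and 10.5% higher) or under ribosomal scaling (5 lower, with 45.8% and 1.2%). From 2 to 4 h, 2 members were lower (MCL1 and BMF) where 14.2% of all tested genes were, and 1 was higher (BID) where 10.2% were.

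**Figure D2:**
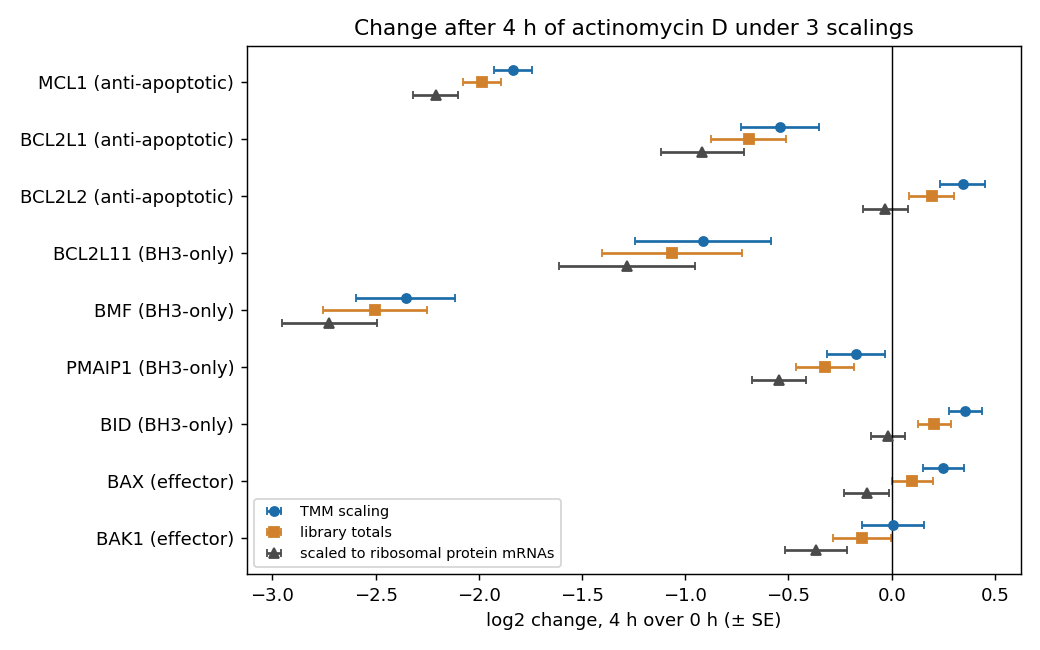
Log2 change at 4 h over 0 h (x axis, points with ± SE from edgeR) of the 9 tested members under TMM scaling, library totals and scaling to ribosomal protein mRNAs. MCL1, BMF, BCL2L11 and BCL2L1 lay below 0 under all 3, while BID and BCL2L2 lay above 0 under TMM and at -0.02 and -0.03 under ribosomal scaling.

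The scaling moved all genes together. Under ribosomal scaling, the median log2 change of all tested genes at 4 h was shifted by -0.37, and by library totals it was shifted by -0.15. Relative to the 73 ribosomal protein mRNAs of that scaling, MCL1 stood at -2.21, BMF at -2.72, BCL2L11 at -1.28 and BCL2L1 at -0.92 at 4 h, and these 4 directions were the same by library totals.

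A single slope over the 4 times puts the members on 1 scale. BMF had a slope of -0.62 log2 units per hour (SE 0.06, edgeR adjusted p = 4.401e-07), which is an apparent half-life of 1.62 h relative to the other mRNAs, or 1.40 h under ribosomal scaling. MCL1 had a slope of -0.45 (SE 0.05, adjusted p = 1.436e-06), an apparent half-life of 2.21 h, or 1.82 h under ribosomal scaling, which averages its fast start and slower end. BCL2L11 had -0.24 (SE 0.08, adjusted p = 0.02349), or 4.22 h, and 3.0 h under ribosomal scaling. This averages a log2 change of -1.0 over the first 2 h and 0.09 from 2 to 4 h, neither called without the replicate block. The BCL2L11 slope call ended without replicate 3 at 0 h (-0.18, adjusted p = 0.0754) or replicate 2 at 4 h (-0.23, adjusted p = 0.0582). BCL2L1 had -0.14 (SE 0.04, adjusted p = 0.01063), or 7.06 h, and 4.13 h under ribosomal scaling. These are 4 of 9 members with a slope called below 0, where 25.5% of all tested genes had one.

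Slopes above 0 were called for BID (0.10, SE 0.02, edgeR adjusted p = 0.001257), BCL2L2 (0.09, SE 0.03, adjusted p = 0.00867) and BAX (0.06, SE 0.02, adjusted p = 0.04591), 3 of 9 members where 25.3% of all tested genes had one. Under ribosomal scaling they became -0.0048, -0.0087 and -0.0408, and none of the 3 passed, and by library totals BCL2L2 (adjusted p = 0.112) and BAX (adjusted p = 0.55) did not. The BAX call also ended in 8 of the 12 fits that left out 1 library, namely those without any 1 of the 0 h or 1 h libraries or without replicate 1 or 2 at 4 h (adjusted p from 0.0507 to 0.196), and with RLE factors, no filter or DESeq2 (adjusted p from 0.0656 to 0.0708). PMAIP1 had -0.04 (adjusted p = 0.3572) and BAK1 0.01 (adjusted p = 0.909). Under ribosomal scaling both slopes were called below 0, at -0.14 (adjusted p = 0.00138) and -0.09 (adjusted p = 0.0352). This makes 6 called falling and 0 called rising there, where 47.9% and 0.493% of all tested genes were. By library totals 4 were called falling and 1 rising, where 31.9% and 10.6% of all tested genes were.

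**Figure D3:**
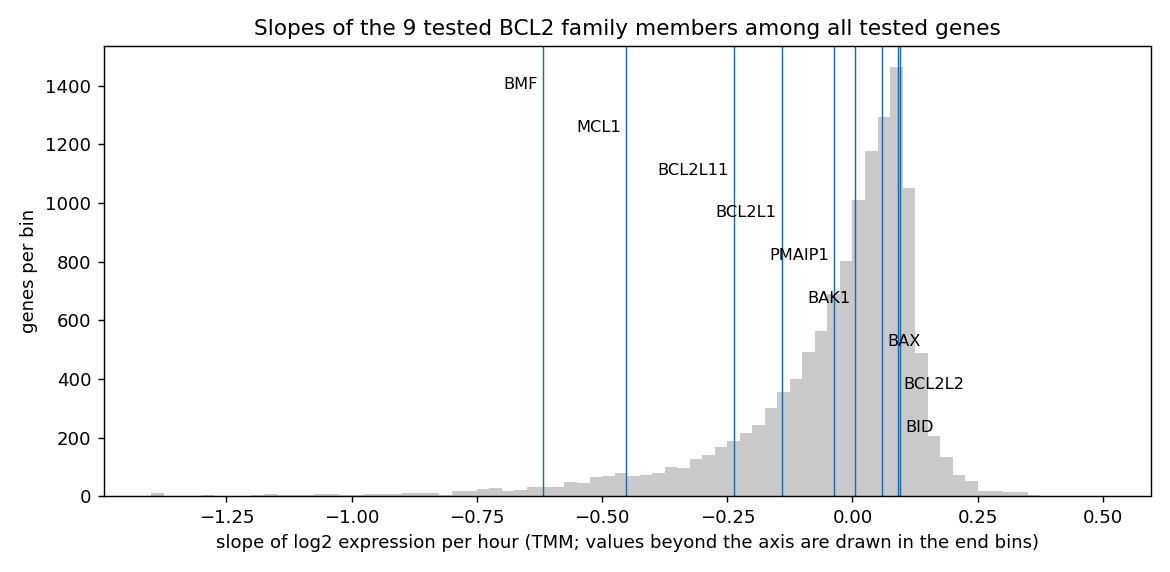
Histogram of the slope of log2 expression per hour (x axis, TMM scaling) over all 12775 tested genes (y axis, genes per bin), with a line for each of the 9 tested members. BMF and MCL1 lie in the left tail, with 2.27% and 5.06% of tested genes at a lower slope, and BID and BCL2L2 lie at the peak of the histogram, with 81.5% and 80.0% at a lower slope.

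**Figure D4:**
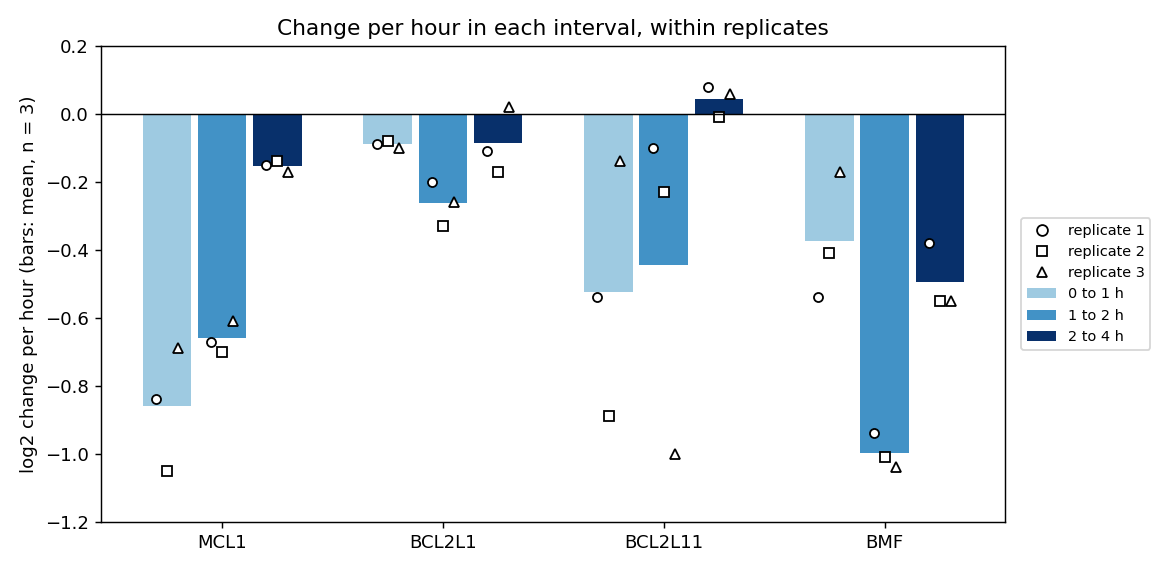
Log2 change per hour (y axis) of the 4 falling members in the intervals 0 to 1 h, 1 to 2 h and 2 to 4 h, with bars for the mean and symbols for each of the 3 replicates. MCL1 lost most per hour at the start, BMF from 1 to 2 h, and the BCL2L11 replicates spread from -0.14 to -0.89 in the first hour.

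Ratios of read counts inside a library need no scaling between libraries, and they are given as a description. A ratio between genes also depends on their lengths, so its course over time is what can be read. MCL1 over BCL2L1 was 0.975 ± 0.106 at 0 h, 0.580 ± 0.127 after 1 h, 0.441 ± 0.109 after 2 h and 0.396 ± 0.0366 after 4 h (SD, n = 3). The 4 h libraries (0.360 to 0.433) lay below all 0 h libraries (0.879 to 1.09).

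PMAIP1, BAK1 and BCL2L11 mRNAs stood higher relative to MCL1 mRNA at 4 h. This did not hold for every pro-apoptotic member. BMF, whose ratio to MCL1 was not taken, fell further than MCL1 (log2 change at 4 h -2.35 against -1.83). PMAIP1 over MCL1 was 0.230 ± 0.0386 at 0 h, 0.369 ± 0.0280 after 1 h, 0.567 ± 0.0948 after 2 h and 0.724 ± 0.164 after 4 h. BAK1 over MCL1 was 0.329 ± 0.00715 at 0 h, 0.563 ± 0.0854 after 1 h, 0.855 ± 0.136 after 2 h and 1.18 ± 0.146 after 4 h. In both ratios all 4 h libraries lay above all 0 h libraries, and each replicate was higher at every later time than at 0 h. BCL2L11 over MCL1 was 0.1 ± 0.0419 at 0 h, 0.132 ± 0.0734 after 1 h, 0.141 ± 0.0229 after 2 h and 0.185 ± 0.0359 after 4 h, with replicate 3 highest at each time. BBC3 over MCL1 rested on 0 to 16 BBC3 reads a library and was 0 to 0.00292 at 4 h, against 0.00195 to 0.0122 at 0 h. BAX over BCL2L1 was 0.327 ± 0.0853 at 0 h, 0.365 ± 0.0663 after 1 h, 0.427 ± 0.0766 after 2 h and 0.550 ± 0.0287 after 4 h, and no 4 h library overlapped a 0 h library.

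**Figure D5:**
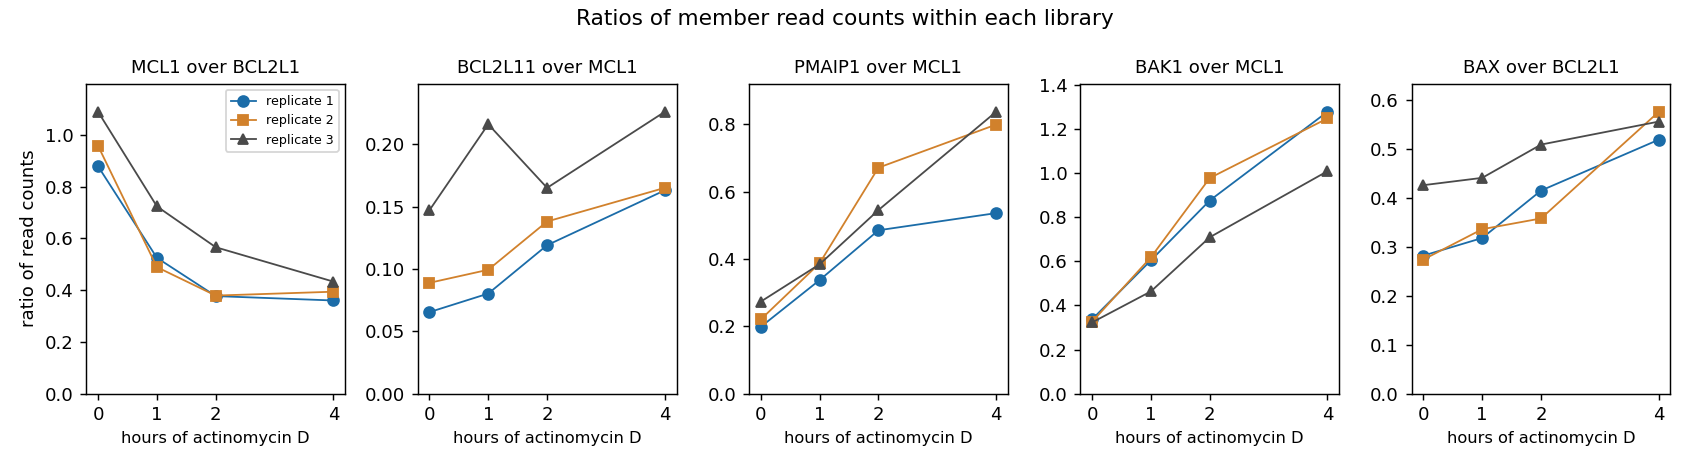
Ratio of read counts of 2 members within a library (y axis, starting at 0) against hours of actinomycin D (x axis), 1 line per replicate. MCL1 over BCL2L1 was lower at each later time than at 0 h in each replicate, with a mean of 0.396 at 4 h, and the other 4 ratios were higher at 4 h than at 0 h in each replicate. BBC3 over MCL1 is not drawn, and no ratio was taken for BMF, which fell further than MCL1.

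Levels between genes were compared per kilobase of the annotated principal transcript, which may differ from the isoforms these cells use. At 0 h BAX had 54.9 ± 2.34 CPM per kilobase and BCL2L1 52.7 ± 10.5, which overlapped, followed by MCL1 at 33.7 ± 3.78 (SD, n = 3). BAK1 (20.4 ± 2.51) and BID (18.3 ± 1.19) overlapped, and PMAIP1 (15.5 ± 1.46) and BCL2L2 (11.2 ± 1.27) came next. BCL2L11 (8.49 ± 2.67) overlapped both BCL2L2 and BMF (7.70 ± 1.12), and BBC3 was lowest at 0.427 ± 0.312. At 4 h MCL1 stood at 9.44 ± 0.433 CPM per kilobase, below BCL2L2 at 14.2 ± 0.803 and PMAIP1 at 13.7 ± 2.68, with no overlap with either.

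The counts of the further gene lists at 4 h stand against all tested genes, of which 24.6% were lower and 23.3% higher. By library totals these shares were 31% and 10.5%, under ribosomal scaling 45.8% and 1.2%, and with the replicate block 30.8% and 34.8%. Of 8 further anti-apoptotic and multidomain genes, 4 were tested, and at 4 h 2 were lower and 0 higher, with a median log2 change of -0.19 (3 and 0 by library totals, where 31% of all tested genes were lower, or under ribosomal scaling, where 45.8% were, and 2 and 1 with the block). BCL2, the founding anti-apoptotic member, was at 2.23 ± 0.948 CPM at 4 h, against 3.84 ± 0.530 at 0 h (log2 change -0.78, edgeR adjusted p = 0.03231). That call ended without replicate 2 at 0 h, or without replicate 1 or 2 at 4 h (adjusted p from 0.0999 to 0.134). At an unadjusted p under 0.05, and in DESeq2, the counts were the same. BCL2L13 fell by 0.28 (adjusted p = 0.008164), and BCL2L12 had 0.30 (adjusted p = 0.1079), or past the threshold with the replicate block (adjusted p = 0.0088) and -0.07 under ribosomal scaling. BCL2L12 moved to 0.50 and past the threshold without replicate 3 at 0 h (adjusted p = 0.00283), and to 0.19 without replicate 1 at 0 h.

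Of 7 other BH3-only and BH3-like genes 5 were tested, and at 4 h 0 were lower and 1 was higher, where 24.6% of all tested genes were lower and 23.3% higher. By library totals and under ribosomal scaling 1 was lower and 0 were higher, and the median of 0.19 became -0.18 under ribosomal scaling. The 1 called higher under TMM scaling was BAD, a BH3-only protein controlled by phosphorylation, with a log2 change of 0.49 (edgeR adjusted p = 0.01589). It was 0.34 by library totals (adjusted p = 0.101) and 0.12 under ribosomal scaling, and the call ended without replicate 2 at 0 h or replicate 3 at 4 h (adjusted p = 0.0575 and 0.0798). BNIP3 (0.19) and BNIP3L (0.16), mitophagy receptors with BH3-like sequences, passed with the block alone (adjusted p = 0.0132 and 0.0258), and turned to -0.18 and -0.21 under ribosomal scaling. With the block 4 of the 5 were higher, where 34.8% of all tested genes were, and at an unadjusted p under 0.05, or in DESeq2, 0 were lower.

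Of 9 caspase and apoptosome genes, all tested, 3 were lower at 4 h and 0 higher (median -0.04), near the 24.6% of all tested genes that were lower. They were 7 and 0 under ribosomal scaling, where 45.8% of all tested genes were lower, and 3 and 1 with the block (30.8% lower and 34.8% higher). CASP2 fell by 0.33 on the log2 scale (edgeR adjusted p = 0.004579) and DFFB, the nuclease that cuts DNA in apoptosis, by 0.63 (adjusted p = 0.02668). At an unadjusted p under 0.05, 1 of the 9 was higher, and DESeq2 gave 2 lower and 0 higher. The DFFB call ended in 5 of 12 fits without 1 library (replicates 1 and 2 at 0 h and all 3 at 4 h, adjusted p up to 0.0804). Of 7 tested genes for IAP proteins and their antagonists, 3 were lower and 0 higher (median -0.19), where 24.6% of all tested genes were lower. They were 5 and 0 under ribosomal scaling (45.8% of all tested genes lower) and 3 and 1 with the block. XIAP, which inhibits caspases directly, fell by 0.53 (adjusted p = 0.0004198), BIRC2 by 0.51 (adjusted p = 0.003218) and BIRC6 by 0.24 (adjusted p = 0.01989). At an unadjusted p under 0.05, and in DESeq2, 0 of these 7 were higher. The BIRC6 call ended without replicate 1 or 2 at 0 h or replicate 3 at 4 h (adjusted p from 0.0503 to 0.0886).

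The death receptor pathway had 5 of 9 tested genes lower and 1 higher at 4 h, where 24.6% and 23.3% of all tested genes were, and their median was -0.36. By library totals 6 were lower and 0 higher (31% of all tested genes lower), and under ribosomal scaling 7 and 0 (45.8% lower). FADD, the adaptor that recruits caspase 8, was at 7.59 ± 0.957 CPM at 4 h, against 43.9 ± 0.719 at 0 h. It fell 5.76-fold, or -2.53 on the log2 scale (SE 0.11, edgeR adjusted p = 2.717e-09). Its log2 change was -0.77 at 2 h, with a further -1.75 from 2 to 4 h. RIPK1 fell by 0.98 on the log2 scale (adjusted p = 7.278e-06) and TNFRSF1A, a TNF receptor, by 0.88 (adjusted p = 6.143e-07).

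The other called genes of that pathway, named after their values were seen, were near the threshold. TNFRSF10A, a TRAIL receptor, fell by 0.43 on the log2 scale (edgeR adjusted p = 0.03351) and CFLAR, the caspase 8 inhibitor, by 0.36 (adjusted p = 0.04101). TNFRSF10B, the other TRAIL receptor, was higher by 0.15 (adjusted p = 0.04395), and stood at -0.22 under ribosomal scaling (adjusted p = 0.0045). Of the 12 fits that left out 1 library, the TNFRSF10A call ended in 5 (replicates 1 and 2 at 0 h and all 3 at 4 h, adjusted p up to 0.123) and the CFLAR call in 6 (replicates 1 and 2 at 0 h, replicate 2 at 1 h and at 2 h, and replicates 2 and 3 at 4 h, adjusted p up to 0.151). The TNFRSF10B call ended in 10, all but those without replicate 2 or 3 at 1 h (adjusted p up to 0.163).

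Of 7 genes for turnover of MCL1 protein, all tested, 3 were lower and 0 higher at 4 h, where 24.6% of all tested genes were lower, and their median was -0.18. They were 5 and 0 by library totals (31% of all tested genes lower) and under ribosomal scaling (45.8% lower), and 4 and 1 with the block (30.8% lower and 34.8% higher). At an unadjusted p under 0.05, 1 of the 7 was higher, and in DESeq2 0 were. The ubiquitin ligase genes TRAF6, FBXW7 and BTRC fell by 2.19, 1.04 and 0.72 on the log2 scale (edgeR adjusted p = 3.666e-08, 0.0001302 and 9.807e-06). Of 7 genes listed as membrane partners of the family, all tested, 0 were lower and 6 higher at 4 h, where 24.6% and 23.3% of all tested genes were. By library totals 4 were higher (10.5% of all tested genes), and under ribosomal scaling 2 were lower and 0 higher (45.8% of all tested genes lower). At an unadjusted p under 0.05, and in DESeq2, 0 were lower. Their median was 0.32, or -0.05 under ribosomal scaling. BCAP31 and TMBIM6 rose by 0.39 each and VDAC1, the outer membrane channel, by 0.32 (adjusted p = 0.0001181, 0.0002022 and 0.0001071), and under ribosomal scaling they were at 0.01, 0.01 and -0.05.

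The genes whose course was most like that of a member were found by the distance between their log2 changes at 1, 2 and 4 h against 0 h, among 10260 tested genes with a mean of at least 5 CPM. These changes share the 0 h libraries. Nearest to MCL1 were YOD1 (distance 0.136), ZNF180 (0.152) and ZNF765 (0.222), with log2 changes at 4 h of -1.91, -1.88 and -1.89. Nearest to PMAIP1 were EIF1B, RHPN2 and TECPR2 (0.0211 to 0.0416), and nearest to BAX were RAPGEF1, MICAL2 and IQCE (0.00952 to 0.0211).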

How the data were processed

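Polyadenylated RNA was taken up in 12 stranded TruSeq libraries, per the labels' protocols. The authors deposited raw read counts per gene symbol. Per the submitters' processing notes, FastQC, STAR and hg19 were used. How reads were counted (program, annotation, strand) is not given in the sources used here, so overlapping genes could share reads. Of 26334 genes, filterByExpr kept 12775. Libraries were scaled by TMM and tested with edgeR 4.0.16 (quasi-likelihood, R 4.3.3) over all 12 libraries, with Benjamini-Hochberg adjustment over all tested genes and a threshold of 0.05. The tests were 1, 2 and 4 h against 0 h, 4 h against 2 h, a slope per hour, and the change of rate. These tests, and the fits that left out 1 library, held no term for the replicate number, save where the replicate block is named. Scripts were tested on simulated data. SE is the absolute log2 change over the square root of F. Half-life is the negative inverse of the slope. DESeq2 1.42.0 was an alternative.

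Members and lists were chosen with earlier results of these data known. Named genes were all members, FLI1, up to 3 per further list by adjusted p at 4 h, and the 3 nearest in course to MCL1, PMAIP1 and BAX. A gene that met this rule is not reported here. No coordinates are in the deposited counts; those printed are GENCODE v29 on GRCh38. The labels call the samples biological replicates. Their numbers paired the libraries: deviations from time means correlated at 0.263 to 0.649 within a number, against -0.501 to 0.16 between numbers, and 12 of 12 libraries were closest to their own number. No pair of replicates was identical, with a chi-square per degree of freedom of 4.35 to 16.1.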

Additional observations from a re-analysis of the deposited data

How the results depend on the processing

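With the replicate block, members called lower were 3 at 1 h (6.28% of all tested genes) and 5 at 2 h (19.5%). Members called higher were 1 at 2 h (15.9%) and 2 of 9 from 2 to 4 h, about the 22.1% of all tested genes. Members called for a change of rate were 2, both positive, where 7.39% of all tested genes were positive and 5.46% negative. The block changed no other count of members by more than 1.5 times. By library totals 0 members were called higher at 4 h and 1 had a slope called above 0. Under ribosomal scaling 0 were called higher at 4 h and 0 had a slope called above 0. From 2 to 4 h, 0 members were higher with RLE factors, library totals, ribosomal scaling, no filter on low counts, DESeq2, the compared groups alone, or all of replicate 3 left out, an alternative chosen after seeing the data, which also gave 4 members lower at 2 h. Under ribosomal scaling the log2 change at 4 h turned to -0.0307 for BCL2L2 and -0.0178 for BID, and the slope to -0.0087 for BCL2L2, -0.0048 for BID, -0.0408 for BAX and -0.0949 for BAK1.

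Leaving out each library in turn gave 2 to 4 members lower and 1 to 3 higher at 4 h, 1 to 2 lower and 0 to 1 higher from 2 to 4 h, and 0 to 1 called for a change of rate. At 1 h and 2 h and for the slope these fits stayed within 1.5 times of the reported counts. The log2 ratios at 4 h minus 0 h ranged from -1.37 to -1.22 for MCL1 over BCL2L1, from 1.52 to 1.84 for PMAIP1 over MCL1, from 0.68 to 1.26 for BCL2L11 over MCL1, from 1.77 to 1.94 for BAK1 over MCL1 and from 0.66 to 0.98 for BAX over BCL2L1. MCL1 and BMF kept their calls at 2 h, at 4 h and in slope under every alternative run. Depth limits BBC3, with 0 to 16 reads a library. The cause of the other changes was not tested.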

Other observations

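The replicates differed in the level of several members at every time, in the same libraries that the second principal component set apart. BCL2L11 and BMF were highest in replicate 3 at 4 of 4 times, and BBC3 at 3 of 4. BCL2L1, BCL2L2 and BAK1 were lowest in replicate 3 at 4 of 4 times, and BID at 3 of 4. MCL1, by contrast, was lowest there at 1 of 4 times and never highest. At 0 h BCL2L11 stood at 17.0 CPM in replicate 3, against 8.88 and 12.9 in replicates 1 and 2, and BCL2L1 at 106 CPM, against 155 and 152. What set replicate 3 apart was not tested.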
